A study of Drosophila melanogaster with 3 samples.

Results

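The genes described are 5 orphan nuclear receptors of the ecdysone cascade, Hr4, Hr38, Hr39, Hr78 and Eip78C, taken as binding targets of the nuclear receptor Hr3. They are 5 of the 13945 protein-coding genes of the Ensembl annotation (release 115) on the dm6 assembly. The sites counted for each gene are the peak summits, the single base of highest signal in each peak, inside it or within 5 kb on either side. A summit counted in this way is not thereby tied to the gene. The authors' reproducible peak list, derived by the irreproducible discovery rate (IDR), held 24 such summits of 5357 in all, and the authors' relaxed list of the pooled replicates held 80 of 23597.

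Chromatin immunoprecipitation followed by sequencing (ChIP-seq) was done on whole Drosophila melanogaster embryos of 0 to 24 h, with males and females pooled. The flies were a stable transgenic line in which GFP (green fluorescent protein) was joined to the C-terminus of Hr3, also called Hr46, and the precipitation used an antibody against GFP. The labels give 1 group, Hr3-GFP embryos, with 3 biological replicates. There is no second genotype, treatment or stage, so no test between groups was possible. Embryos of this age span all embryonic stages and mix all tissues, so a peak can come from a few cells or a short stage. Which promoter drives the tagged protein is not stated in the labels. The authors' inputs to peak calling included a control file, which is not analysed here. Read totals are not part of the peak lists, so depth is unknown.

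Ecdysone, the steroid that times moulting and metamorphosis in insects, acts through the heterodimer of EcR and Usp and switches on a cascade of transcription factors, many of them nuclear receptors. Hr3, the fly counterpart of the mammalian ROR proteins, is an early-late regulator in that cascade and is known to activate ftz-f1, and it binds as a monomer to the ROR response element (RORE), an AT-rich stretch followed by a nuclear receptor hexamer. Hr4 is related to the vertebrate germ cell nuclear factor and acts with Hr3 in repressing early ecdysone genes at the onset of metamorphosis. Hr38 is the fly member of the NGFI-B family and can pair with Usp. Hr39 is the closest fly relative of Ftz-f1 and binds the same DNA element. Hr78 is related to the testicular receptors of mammals, and Eip78C is an ecdysone-induced relative of the Rev-erb proteins.

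The sequences at the summits that the results turn on are printed first, on the plus strand of dm6, 5′ to 3′, cut to 201 bases centred on the summit or shorter where an annotated UTR falls inside that window. The Hr4 summit at position 1963924 was the strongest at any of the 5 genes, and the other Hr4 pair held the only reproducible summits with a RORE within 100 bp. The remaining 4 are the strongest summit at each other gene, and those of Hr39 and Hr78 lay at the gene's own promoter. Capitals mark the RORE where there is one, and elsewhere the summit base with 5 bases on either side.
Hr4 intron 3, strongest summit, X:1963824-1964024: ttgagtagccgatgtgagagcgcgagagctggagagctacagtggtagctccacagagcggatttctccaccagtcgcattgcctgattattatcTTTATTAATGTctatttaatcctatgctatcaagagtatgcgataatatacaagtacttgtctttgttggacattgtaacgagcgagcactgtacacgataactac
Hr4 intron 4, RORE, X:1970665-1970865: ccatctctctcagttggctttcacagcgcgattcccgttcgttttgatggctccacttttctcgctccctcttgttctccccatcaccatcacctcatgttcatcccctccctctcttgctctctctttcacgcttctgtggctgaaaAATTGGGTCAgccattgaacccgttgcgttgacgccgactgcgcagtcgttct
Hr4 intron 7, RORE, X:1995642-1995842: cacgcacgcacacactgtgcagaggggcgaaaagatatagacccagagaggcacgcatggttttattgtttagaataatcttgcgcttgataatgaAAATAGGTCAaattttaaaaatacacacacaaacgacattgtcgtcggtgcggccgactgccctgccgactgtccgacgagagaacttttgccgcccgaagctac
Hr38, upstream of the gene, 2L:20715096-20715296: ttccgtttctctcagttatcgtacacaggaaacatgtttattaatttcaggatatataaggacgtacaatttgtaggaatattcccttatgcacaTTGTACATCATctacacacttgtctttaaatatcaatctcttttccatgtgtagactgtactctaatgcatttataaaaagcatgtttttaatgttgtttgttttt
Hr39, own promoter, 2L:21237078-21237249: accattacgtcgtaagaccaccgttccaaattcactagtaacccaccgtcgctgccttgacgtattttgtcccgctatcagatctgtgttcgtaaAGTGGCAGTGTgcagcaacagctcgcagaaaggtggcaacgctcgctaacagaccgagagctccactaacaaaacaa
Hr78, own promoter, 3L:21496990-21497142: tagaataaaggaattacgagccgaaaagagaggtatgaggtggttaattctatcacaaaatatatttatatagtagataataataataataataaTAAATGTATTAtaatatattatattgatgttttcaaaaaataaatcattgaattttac
Eip78C intron 3, 3L:21251510-21251710: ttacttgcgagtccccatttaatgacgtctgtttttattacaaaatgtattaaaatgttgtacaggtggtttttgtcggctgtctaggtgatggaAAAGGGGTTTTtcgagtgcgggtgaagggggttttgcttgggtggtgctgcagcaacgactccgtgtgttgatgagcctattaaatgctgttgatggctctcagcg
The Hr78 window stood apart by its base composition: its GC content was 24.4% over 201 bp and 7.84% over the 51 bp at the summit, against 24.4% to 53.7% over 201 bp at all 24 summits.

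All 5 genes had at least 1 reproducible summit within the gene or 5 kb of it, and so did 53.2% of all protein-coding genes. The summits were spread very unevenly over the 5 genes. Hr4 had 17 summits, Hr38, Hr39 and Eip78C had 2 each, and Hr78 had 1. Hr4 thus held 70.8% of the 24 summits in 35.7% of the length searched. Counting Hr4 itself, 6 protein-coding genes, 0.0430% of the total, had as many summits as Hr4 or more. By comparison, 26.2% of protein-coding genes had 2 or more summits, as Hr38, Hr39 and Eip78C did.

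Long genes collect more summits, so counts were also set per length. Hr4 had 2.24 summits per 10 kb, which was 5.59 times the average of 0.400 over the major chromosome arms. Hr78 had 0.742, Hr39 0.617, Hr38 0.486 and Eip78C 0.401 summits per 10 kb, and the median over all gene loci was 0.409. A density as high as that of Hr4 was reached by 5.68% of protein-coding genes, and one as high as that of Eip78C by 50.1%. For comparison, ftz-f1 had 13 summits at 2.14 per 10 kb, Eip75B had 19 at 1.54 and Hr3 itself had 7 at 1.62. The density nearest to that of Hr4 among the cascade genes was that of usp, the partner of EcR, with 3 summits at 2.22 per 10 kb in a locus of 13514 bp.

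**Figure D1:**
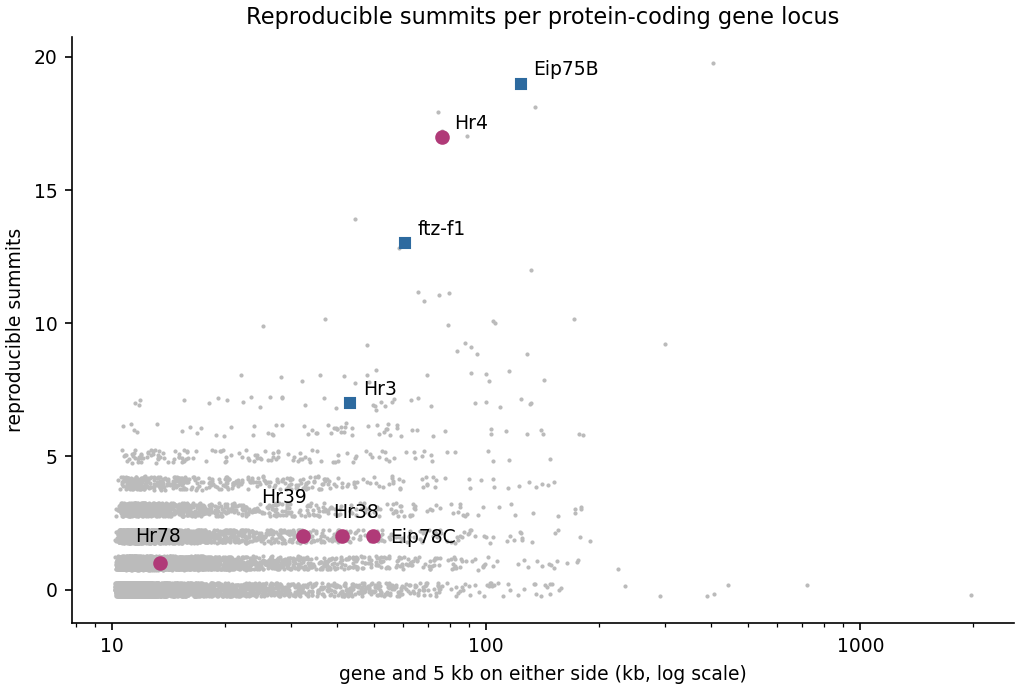
Number of reproducible summits (vertical axis) against the length of the gene and 5 kb on either side in kb (horizontal log axis) for 13945 protein-coding genes, with the 5 receptor genes as magenta circles, Hr3, ftz-f1 and Eip75B as blue squares, and the other genes as grey points shifted slightly up or down to separate them. Hr4, at 17 summits, stands near the top with Eip75B at 19, while the other 4 magenta circles, at 1 or 2 summits, lie within the mass of genes.

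Summit places were set beside those of the whole list. Of the 24 summits, 15 (62.5%) lay in introns, 7 (29.2%) were promoter summits, meaning within 500 bp of a transcription start site (TSS) of any gene, 1 lay in a UTR, 1 between genes and 0 in coding sequence. Over all 5357 reproducible summits, 33.3% were intronic and 51.5% were promoter summits. Most of the intronic summits were at Hr4: 13 of its 17 summits (76.5%) were intronic and 3 (17.6%) were promoter summits, whereas of the 7 summits at the other 4 genes 2 (28.6%) were intronic, 4 (57.1%) were promoter summits and 1 lay between genes. A high intronic share was not particular to Hr4: 11 of 13 summits at ftz-f1, 17 of 19 at Eip75B and 5 of 7 at Hr3 were intronic. Own-promoter summits were present at 2 of the 5 genes, Hr39 and Hr78, and at 23.9% of all protein-coding genes. The other 5 promoter summits lay near the TSS of a neighbouring gene or a non-coding RNA.

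**Figure D2:**
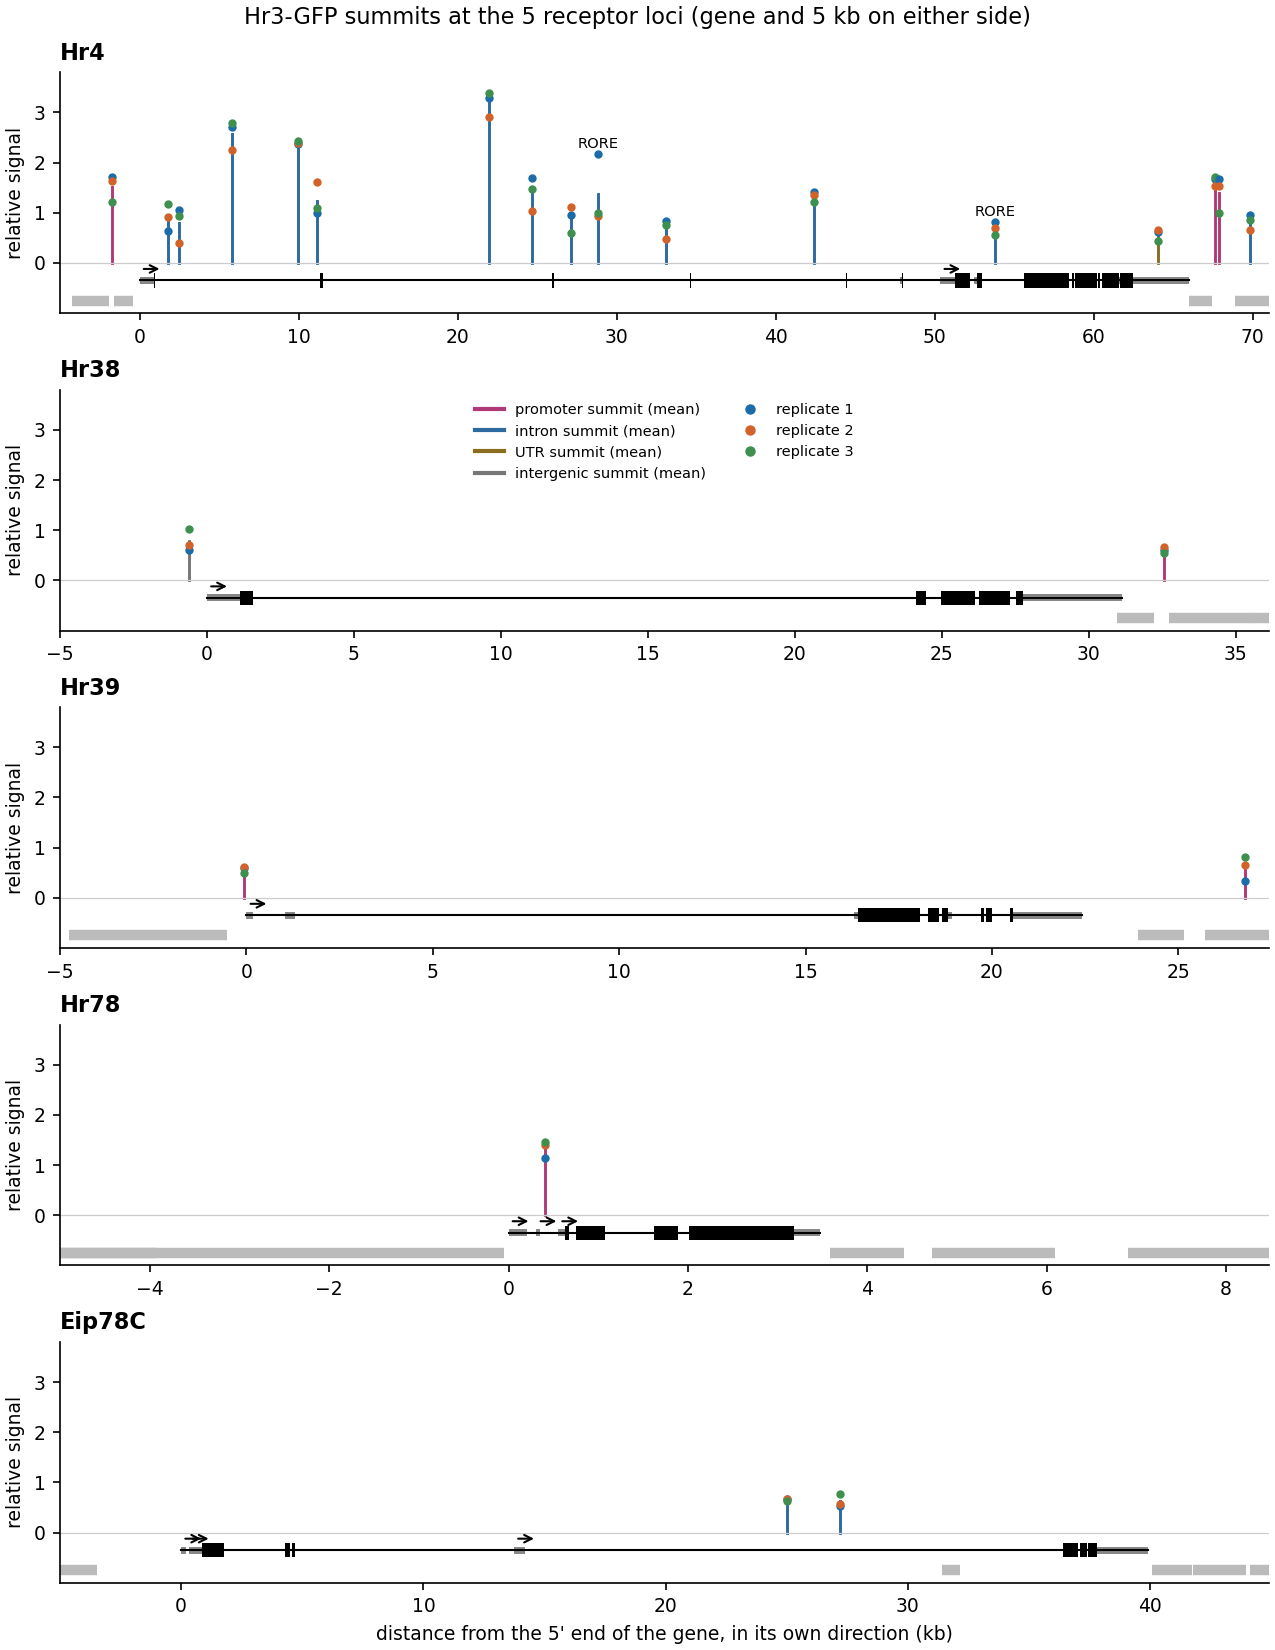
Map of the 5 loci, with distance in kb from the 5′ end of each gene along its own direction (each panel has its own horizontal scale) and relative signal on the vertical axis. Stems end at the mean of 3 replicates and are coloured by place, points are the replicates, black boxes are coding exons, thin grey boxes are UTRs and other exonic sequence, arrows are start sites, and grey bars below are neighbouring protein-coding genes. Hr4 carries summits in 5 of its 11 introns (2, 3, 4, 5 and 7), and its summits range from 0.404 to 3.39 in relative signal, whereas Hr38 and Hr39 have none inside the gene.

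Peak strength is the signal value that the authors' peak caller gave each peak. Its scale differs between lists, so each replicate's value was divided by that replicate's median over the reproducible summits (40.4, 81.2 and 68.6 in replicates 1, 2 and 3). A relative signal of 1 is therefore a typical reproducible summit. Each of the 24 summits lay in a peak of all 3 replicates, as did 5257 of the 5357 summits of the whole list. The median relative signal of the 24 summits was 0.897, and over the whole list it was 1.00, and 10 of the 24 exceeded the list median of the pooled signal.

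**Figure D3:**
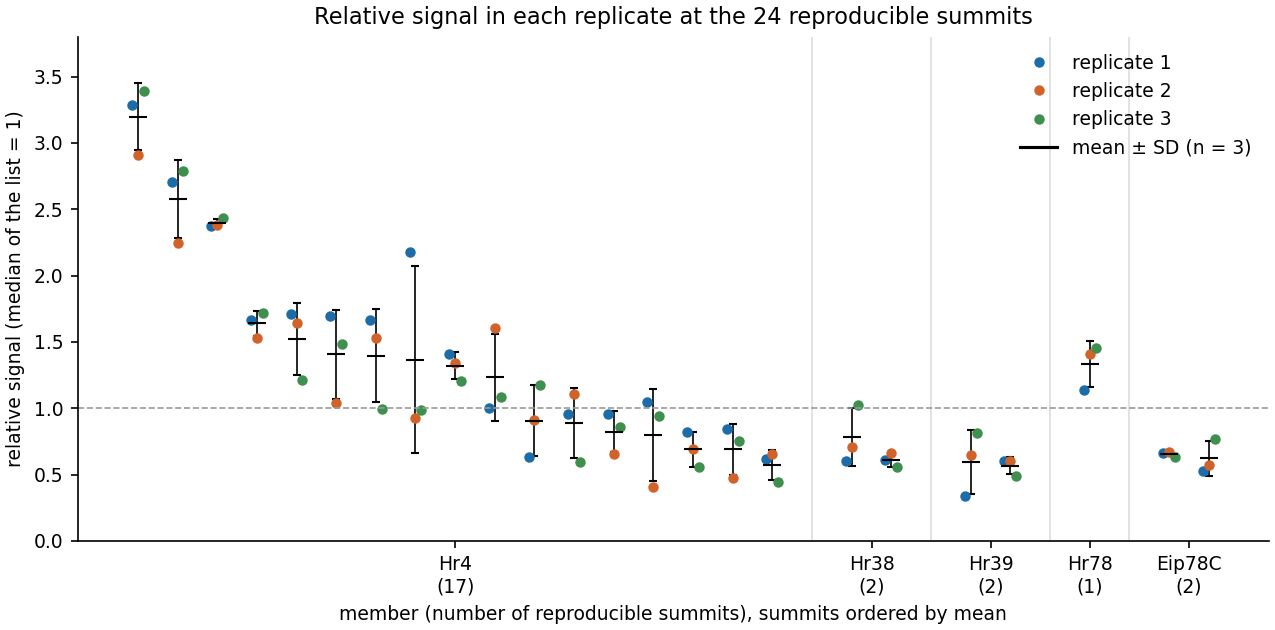
Relative signal (vertical axis, list median of 1 dashed) in replicates 1, 2 and 3 at each of the 24 reproducible summits, grouped by gene and ordered by mean, with black bars for mean ± SD (n = 3). The 3 leading Hr4 summits lie above 2.2 in every replicate, and the Hr38, Hr39 and Eip78C points do not exceed 1.03.

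Hr4 (FBgn0264562) spans X:1941940-2007956 on the plus strand, 66017 bp with 11 introns in its longest transcript. Of its 17 summits, 12 lay in its own introns, 1 in its 3′ UTR, 3 at promoters of neighbouring genes and 1 in an intron of the neighbour east. Its 12 intronic summits were divided as 5 in intron 2, 2 in intron 3, 3 in intron 4, 1 in intron 5 and 1 in intron 7. Introns 2 and 4 were the densest of the long ones, with 4.81 and 3.50 summits per 10 kb, whereas intron 6, at 6083 bp, had 0. All 13 summits inside the gene lay downstream of its first coding base, and none lay within 500 bp of either of its 2 start sites. That base is only 925 bp from the 5′ end, so nearly the whole gene lies downstream of it.

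The strongest Hr4 summit, in intron 3 and 21984 bp from the 5′ end, had relative signals of 3.29, 2.91 and 3.39 in replicates 1, 2 and 3, a mean of 3.20 ± 0.253 (SD, n = 3). It ranked 310 of 5357. Position 1947728 in intron 2 followed with 2.71, 2.24 and 2.79, and position 1951924, also in intron 2, with 2.38, 2.38 and 2.43. These 3 summits were high in every replicate, and their lowest value, 2.24, was above all values of the other 14 Hr4 summits.

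Further out, position 2009606 lay 242 bp upstream of PIG-K, which encodes a subunit of the GPI transamidase, and had 1.66, 1.53 and 1.72. A neighbouring summit at 2009811, 205 bp away, overlapped it and shared its peaks in replicates 1 and 2, so the pair counts as 1 site when overlapping peaks are merged. Position 1940202, upstream of Hr4 between the start sites of CG3587 and CG3857, had 1.71, 1.64 and 1.21. It lay 1738 bp from the Hr4 start and 105 bp from that of CG3587, so the peak lists alone do not tie it to Hr4. The remaining summit outside the gene, in the intron of east, was 535 bp upstream of a start site of east and so just outside the 500 bp used for promoters.

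Neighbouring Hr4 summits were a median of 3434 bp apart over 16 gaps. The gaps ranged from the 205 bp above to 11412 bp. Of the 17 summits, 9 exceeded the list median of the pooled signal, and 13 lay in peaks among the 5357 strongest of every replicate. Over the whole list, 72.1% of the summits lay in such peaks.

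Both reproducible summits with a RORE were intronic summits of Hr4. In intron 4, position 1970765 had the match AATTGGGTCA centred 52.5 bp from the summit. Its relative signals were 2.18, 0.927 and 0.989, so replicate 1 stood far above the others, and its coefficient of variation, 51.7%, was the highest of the 24 summits. In intron 7, position 1995742 had the match AAATAGGTCA centred 0.5 bp from the summit, with relative signals of 0.823, 0.693 and 0.558, below the list median in every replicate. The summits with a RORE were thus not the strongest at the gene: all values of the strongest summit, which had no RORE within 100 bp, were above those of both.

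The RORE was found within 100 bp of 2 of the 24 summits (8.33%) and of 69 of all 5357 summits (1.29%). In the whole of the Hr4 locus there were 10 matches, of which 2 were at reproducible summits, and at the Eip78C locus there were 6, of which 0 were. The Hr38, Hr39 and Hr78 loci held 0 matches. Over the 5 loci the RORE occurred 0.751 times per 10 kb, against 0.358 over the major arms. A match is a description of letters and is not evidence of a bound site.

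Other elements were searched on both strands in the same windows. The nuclear receptor hexamer AGGTCA is part of the elements of Hr38 and Ftz-f1 and of those RORE matches that end in it, such as the one in intron 7 of Hr4 but not the one in intron 4. It was within 100 bp of 2 of the 24 summits, both at Hr4 and 1 of them being the intron 7 RORE, and of 4.72% of all summits. The Hr38 element AAAGGTCA, the Ftz-f1 and Hr39 element CAAGGTCA, the EcR and Usp palindrome and the direct repeat of the hexamer spaced by 1 base were within 100 bp of 0 of the 24 summits. Their shares among all summits were 0.411%, 0.224%, 0.0373% and 0%. TAATTA, the core of many homeodomain sites, was present at 4 of the 24 (16.7%) and at 20.5% of all summits. GAGAGAG was present at 1 of the 24 and at 2.99% of all, and TATCGATA, the element of the replication-related factor DREF, at 0 of the 24 and 3.92% of all. The element of the early activator Zelda, CAGGTAG, was at 0 of the 24 and 0.747% of all.

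Most Hr4 summits were richer in G and C than the list. The median GC content within 100 bp of the summit was 46.3% at the 17 Hr4 summits (quartiles 35.8% and 48.8%), 30.4% at the 7 summits of the other 4 genes, and 33.3% over all 5357 summits (quartiles 29.4% and 38.3%). Of the Hr4 summits, 11 lay above the upper quartile of the list. Over the whole list, the median was 33.3% at intronic summits and 34.3% at intronic summits on the X chromosome. It was 33.8% at the summits at or below the list's median signal. The Hr4 locus as a whole had 45.9% GC and the major arms 42.2%. The Hr4 summits were near the composition of their own locus, whereas the list as a whole was below that of the genome. The cause of the higher GC content at the Hr4 summits was not tested.

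**Figure D4:**
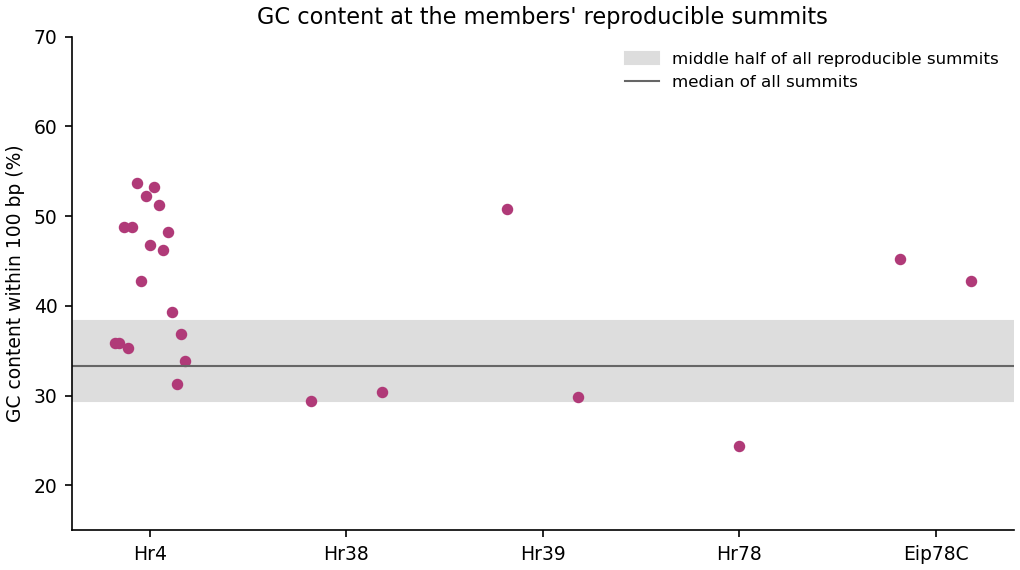
GC content in percent within 100 bp of each reproducible summit (vertical axis) at the 5 genes, each point 1 summit, with the median of all 5357 summits as a line and the range between their quartiles as a grey band. Most Hr4 points lie above the band (11 of 17), both Eip78C points and 1 Hr39 point do too, and the Hr78 point at 24.4% lies below it.

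Hr78 (FBgn0015239), at 3L:21494019-21497494 on the minus strand, is the shortest of the 5 genes at 3476 bp. Its only summit lay in its first intron, 93 bp downstream of the nearest of its 3 start sites, in an intron shared with the antisense RNA gene asRNA:CR43933. Its relative signals were 1.14, 1.41 and 1.46, a mean of 1.33 ± 0.171 (SD, n = 3), and it ranked 1676 of 5357. Every replicate was above 1, so Hr78 was the only gene besides Hr4 with a reproducible summit stronger than a typical one in all replicates.

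Hr38 (FBgn0014859), at 2L:20683462-20714588 on the minus strand, had both summits outside the gene. The stronger lay 608 bp upstream of its single start site, which places it between genes under the 500 bp rule and at the Hr38 promoter under a rule of 1 kb. Its relative signals were 0.603, 0.711 and 1.03, a mean of 0.780 ± 0.220 (SD, n = 3), with replicate 3 the highest. The other lay beyond the 3′ end of Hr38, 190 bp upstream of the start of Cen, which encodes the centrosomal protein centrocortin, and close to that of CG2617, and had 0.609, 0.664 and 0.555. The 22580 bp first intron of Hr38 had 0 reproducible summits and 1 weaker pooled peak.

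Hr39 (FBgn0261239), at 2L:21237250-21259675 on the plus strand, also had both summits outside the gene. The one at its own promoter, 72 bp upstream of the start site, had relative signals of 0.599, 0.604 and 0.492, a mean of 0.565 ± 0.0633 (SD, n = 3), and ranked 5025 of 5357. The start site of the neighbour CG31626 was also within 500 bp of it. The other, in an intron of CG8671, had 0.335, 0.647 and 0.810 and counted as a promoter summit only through the annotated starts of the microRNA mir-4974 and its mature products. Both were near the lower end of the list, with pooled signals of 111.3 and 111.2, whereas the lowest listed value was 105.4, and the one at the Hr39 promoter was among the 5357 strongest peaks of 1 replicate only.

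Eip78C (FBgn0004865), at 3L:21226609-21266503 on the plus strand, had both summits in intron 3, of 31685 bp. They were 2193 bp apart and 25001 and 27194 bp from the 5′ end, far from its 3 start sites. The first had relative signals of 0.663, 0.671 and 0.633, a mean of 0.656 ± 0.0198 (SD, n = 3). Its coefficient of variation was 3.02%, against a median of 19.3% over the 24 summits and 15.9% over the whole list. However, 2 of the 3 replicates had no summit of their own within 100 bp of it. The weaker pooled peak at position 21251839 lay in the same peaks of replicates 1 and 3, so these values are not particular to this summit. The second reproducible summit had 0.523, 0.571 and 0.770. The weaker pooled peak at position 21254002 lay in the same peaks of all 3 replicates, so these values are not particular to the second summit either. All 6 values of the reproducible summits were below 1.

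Ordered by the mean relative signal of the strongest pooled summit, the genes ran Hr4 (3.20), Hr78 (1.33), Hr38 (0.780), Eip78C (0.656) and Hr39 (0.565). The Hr4 summit was picked as the strongest of 17, whereas Hr78 had only 1, so this order favours genes with more summits. The replicate values of neighbours in this order did not overlap between Hr4 and Hr78, between Hr78 and Hr38, or between Eip78C and Hr39. At these summits the lowest Eip78C value was 0.633 and the highest Hr39 value 0.604. This last separation depends on which Hr39 summit is taken, since their pooled signals were 111.3 and 111.2. The other Hr39 summit had 0.335, 0.647 and 0.810, a mean of 0.598, and these values overlap those of Eip78C. Hr38 and Eip78C overlapped, with Hr38 higher in 2 of 3 replicates. The strongest summits of the compared receptors were at 11.8 for Hr3, 4.79 for ftz-f1 and 2.16 for Eip75B, so Hr4, with 3.20, lay above Eip75B and below ftz-f1 and Hr3. These levels are descriptions of single summits, with 3 replicates each.

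The relaxed lists, which the authors called with a permissive threshold as input to the IDR step, held many further peaks at these genes. In the pooled list Hr4 had 41, Eip78C 18, Hr39 13, Hr38 5 and Hr78 3, and 24 of these 80 (30.0%) were in the reproducible list, against 22.7% of the whole pooled list. The share was 41.5% at Hr4, 40% at Hr38, 33.3% at Hr78, 15.4% at Hr39 and 11.1% at Eip78C. Counts in single replicates were close to each other: Hr4 had 38, 43 and 39 relaxed peaks in replicates 1, 2 and 3, Eip78C 16, 15 and 15, Hr39 12, 16 and 11, Hr38 7, 6 and 8, and Hr78 4, 5 and 5. Over all 5 genes the replicates had 77, 85 and 78.

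Of the 56 weaker pooled peaks, 38 lay in introns, 9 at promoters, 3 in UTRs, 2 in coding exons and 4 between genes, and 31 were in peaks of all 3 replicates. Neighbouring relaxed peaks can overlap and share a replicate's peak, so they are not all separate sites. At Eip78C 12 of the 16 weaker peaks were intronic, and the strongest of them, in intron 3, was the strongest weaker peak at any of the 5 genes, with a pooled signal of 96.3. It had a RORE within 100 bp, the only one among the 56, and its relative signals of 0.975, 0.351 and 0.594 in replicates 1, 2 and 3 differed widely. At Hr39 the strongest weaker peak, at 86.1, was in intron 2, which held 7 pooled relaxed peaks and 0 reproducible summits.

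Weaker peaks also lay at start sites, and the start sites of Hr4 had no reproducible summit. Hr4 had 1 at each of its start sites, with relative signals of 0.279, 0.203 and 0.382 at the first and 0.313, 0.313 and 0.358 at the second. These were below every value of its intronic reproducible summits, the lowest of which was 0.404. The reproducible list began at a pooled signal of 105.4, and these start-site peaks had 52.95 and 66.83. Their lower level thus follows largely from being outside that list and is not a separate result. Hr78, which had a reproducible summit at its own promoter, had a further promoter peak 234 bp upstream of its 5′ end, with 0.682, 0.269 and 0.372.

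**Figure D5:**
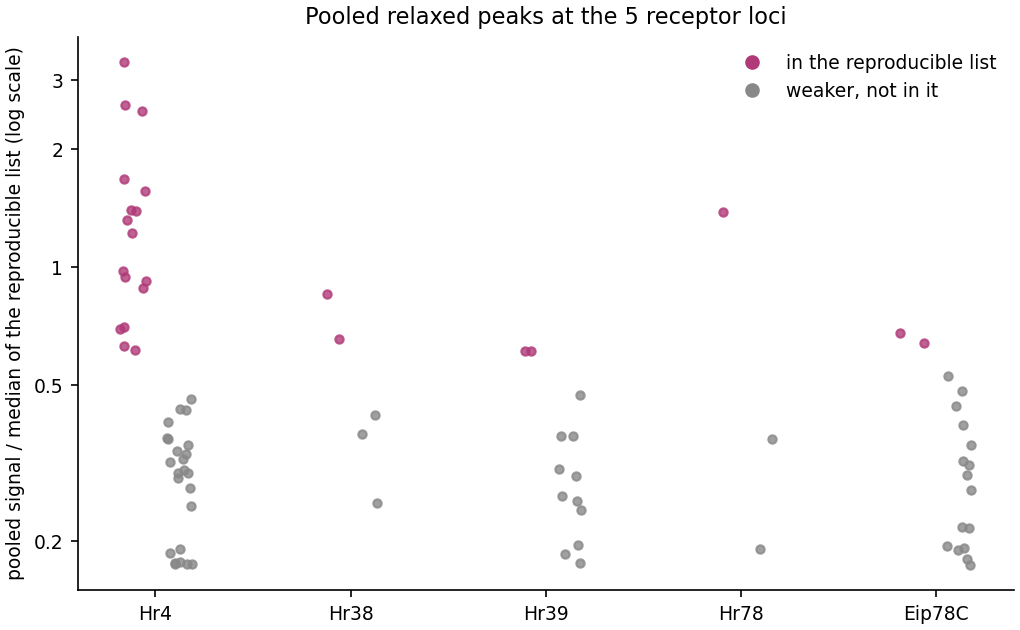
Pooled signal of the 80 pooled relaxed peaks at the 5 genes, divided by the median of the reproducible list (vertical log axis), with peaks in the reproducible list in magenta on the left of each gene and weaker ones in grey on the right. Magenta points start at 0.610 (Hr39) and grey points end at 0.528 (Eip78C), and Eip78C and Hr39 have many grey points for their 2 magenta ones. The colours do not overlap in height because the reproducible list holds the pooled peaks of highest signal.

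Among the ecdysone cascade genes, 27 of 32 (84.4%) had a reproducible summit in the gene or within 5 kb and 13 (40.6%) had one at their own promoter, against the 53.2% and 23.9% of all protein-coding genes given above. The lists were drawn up with results of these data known and their genes differ in length, so the counts are descriptive. Without the 5 receptors the counts were 22 of 27 and 11 of 27. Among the nuclear receptor genes of the fly, 18 of 21 (85.7%) had a summit and 10 (47.6%) one at their own promoter. By number of summits Hr4 was second in both lists after Eip75B, and ftz-f1 with 13, EcR, the ecdysone receptor itself, with 8 and Hr3 with 7 came next. In the cascade list the coactivator gene tai also had 7. The cascade genes with 0 were Blimp-1, ImpL1, ImpE2, rig and Cyp18a1, and the receptors with 0 were tll, svp and kni.

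The genes most like each of the 5 were taken as those with the same number of summits and the closest relative signal at the strongest summit. For Hr4 only sbb, also with 17 summits, qualified, with 3.61 beside 3.20 for Hr4, over the means of 3 replicates. Counts of 2 and 1 were common, shared by 2105 and 3760 other genes. The closest there were Mapmodulin and CG32240 for Hr38, CG15653 and Cht8 for Hr39, and tud and IFT57 for Eip78C. For Hr78 the closest were CG7202 and CG7519, which share its summit because they lie within 5 kb of it, and the closest with a summit of their own were ZnT35C and CG17658.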

How the data were processed

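ChIP-seq peak lists of 3 biological replicates of Hr3-GFP embryos were analysed. Per the labels, sonicated fragments measured 200 to 800 bp. Per the submitters' text files, relaxed peaks on dm6 came from the alignment of each replicate and from all alignments together, with a control file among the inputs, and IDR reduced them to the reproducible list. No header or label names the aligner, caller or IDR threshold. In the deposited files the signal of a peak is its strength as the caller reported it. Lists on the older assembly dm3 were not used.

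The summit is the peak start plus the offset to its highest base. Places came from Ensembl release 115 (BDGP6.54, which is the dm6 assembly), where a promoter overrides an exon of any kind and an exon overrides an intron. A summit near 2 genes was counted for each. A replicate's value is that of its strongest relaxed peak containing the reproducible summit. Elements were searched on both strands of the dm6 sequence of RefSeq. Python 3.11.15, NumPy 2.4.6, pandas 2.3.3 and matplotlib 3.10.9 were used, and the counting steps were tested on simulated data. No p-value was computed: there is 1 group, and peaks and genes are not replicates.

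The genes, lists, elements, tests and alternatives were chosen with earlier results of these data known. Values per replicate are given for the strongest summit of each gene, its promoter summits, summits with a RORE and up to 4 further summits by pooled signal. The weaker peaks and the Hr4 values beyond this rule were chosen after they were seen, as were the GC content by class, the summits per intron, the places without Hr4 and at ftz-f1, Eip75B and Hr3, and usp and tai.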

Additional observations from a re-analysis of the deposited data

How the results depend on the processing

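The 24 summits at the 5 genes became 16 inside the genes alone, 18 with 1 kb and 25 with 10 kb on either side, 23 with overlapping peaks merged, and 10 above the list's median signal. With replicates left out, counting summits among the strongest peaks of the others, 18 to 19 were left. Inside the genes alone 3 of the 5 genes had a summit, and Hr38 and Hr39 had 0. Above the median signal 2 did, Hr4 with 9 and Hr78 with 1. The 7 promoter summits became 2 with the start sites of the 5 genes alone, 1 inside the genes, 2 with 1 kb on either side, 3 above the median signal, 4 to 5 with replicates left out (4 without replicate 2), and 6 with the start sites of protein-coding genes alone, an alternative chosen after seeing the data. The 7419 protein-coding genes with a summit, of 13945, became 1725 inside the gene, 4648 with 1 kb on either side and 5174 above the list's median signal.

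The relative signal of the strongest Eip78C summit was 0.678 in the pooled list, against 0.656 as the replicate mean. With a replicate summit required within 100 bp, Hr38 lacked 1 replicate and Eip78C 2, so no value was given. The 2 summits with a RORE became 1 within 50 bp, and 1 to 2 with replicates left out (1 without replicate 1 and 1 without replicate 2). Counting only each replicate's 5357 strongest peaks, the relaxed peaks at the 5 genes were 26, 22 and 22 in replicates 1, 2 and 3. For these changes the setting itself removes peaks or positions, except that 10 kb on either side adds positions. The Eip78C value is a further exception, and its cause was not tested. Every count with a replicate left out kept only summits among the 5357 strongest peaks of both other replicates. The main counts have no such filter. No result reversed. No paired analysis was possible because there is 1 group.

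Depth is unknown, and the control was not analysed here, so background enrichment at these genes was not measured.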
